A study of Mus musculus with 6 samples.

Results

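Chromatin accessibility around 39 genes of the ephrin, semaphorin, Slit and netrin guidance systems was measured by ATAC-seq in mouse fetal liver cells transformed with MLL-ENL that had kept (WT) or lost (dKO) C/EBPα and C/EBPβ, transcription factors of the myeloid lineage. In this assay the Tn5 transposase cuts open DNA, so that reads accumulate over accessible regions. The cells are immortalized, myeloid progenitor-like and dependent on interleukin 3. WT cells carried floxed but intact Cebpa and Cebpb genes, dKO cells had lost both through recombinant Cre and carried a GFP vector, and dKO-LAP* cells additionally expressed rat C/EBPβ isoform LAP* from a GFP vector. The labels name no vector for WT, and the dKO lines were clones that had survived a growth crisis. Genotype, vector and clone can therefore not be told apart here. The study reported high C/EBPε protein in every dKO clone it recovered, so the dKO cells did not lack all C/EBP factors. Each of the 3 groups had 2 libraries, but the table analysed lists 10016 regions with WT and dKO group means only. Values for dKO-LAP* were not analysed here.

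The genes were chosen by family membership with the measured accessibility differences between WT and dKO known, so the direction of their regions is described and was not tested. A listed region belonged to a gene if it overlapped the gene body extended by 25 kb on each side, and a region within reach of several of the genes went to the nearest start site. By this rule 36 of the 10016 listed regions belonged to 18 of the 39 genes. A level below is the log2 mean of normalized reads over the 2 libraries of a group, and a change is the dKO level minus the WT level. Neither has an error, because no value per library is in the table. The study gives an average sequencing depth, but not the depth of each library. The study listed regions past its own corrected P-value cutoff of 0.05, so an unlisted region may have been open in both groups or in neither. In a bulk sample, more cells with an open region and more openness per cell cannot be told apart. Accessibility is also no measure of the RNA of a gene.

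Guidance genes are widely studied in growing axons, and many also act in other tissues, blood cells included. Eph receptors are receptor tyrosine kinases that bind ephrins on the neighboring cell, and both partners can signal. Semaphorins act through plexins, often with a neuropilin as co-receptor, and several of them regulate the movement and activation of myeloid and lymphoid cells. Slits bind Robo receptors, and netrins bind DCC and UNC5 receptors.

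The deleted genes were inspected first. The Cebpa region that spans its start site had a level of 9.99 in WT and of -0.15, the lowest in the table, in dKO. At Cebpb, the region over the start site had 8.60 and 3.37, and another 800 bp into the gene had 7.38 and -0.15. By the reads alone, missing DNA and closed chromatin cannot be told apart at the lowest level, but the study detected the deletions of both genes by PCR. The level of 3.37 lies above the floor of 1.43 used below. Each gene also had a higher region, 20576 bp from the Cebpa start site (1.85 and 5.04) and 24326 bp from that of Cebpb (4.21 and 6.20). Of 7 marker genes of the labelled myeloid progenitor-like cells, Itgam, Csf1r, Kit, Ly6c2, Mpo and Elane had 14 listed regions. Of these, 13 were higher in dKO (60.3% of all listed regions were higher), and they lay up to 66591 bp from a start site (Itgam). Fcgr3 had none, which does not show that the marker was closed. In dKO cells the study reported weaker staining for CD11b, encoded by Itgam, and for Ly6C, and decreased Csf1r expression. The regions are therefore no measure of marker expression.

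Among the 36 regions at guidance genes, 22 were higher in dKO and 14 were lower. This is 61.1% higher, against 60.3% of all listed regions. The count at least 2-fold higher was 19 of 36, against 49.6% of all listed regions, and the count at least 2-fold lower was 13, against 35.9%. The median change was 1.00 at guidance genes and 0.98 over all listed regions. As a whole, the 36 regions were therefore close to the table they came from, and the families differed among themselves. Plexins and neuropilins had 12 higher and 2 lower regions, semaphorins had 5 and 4, and Eph receptors had 3 and 7. Ephrins had 1 higher region, and the Slit, Robo, netrin, DCC and UNC5 group had 1 in each direction. These family differences were not tested.

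**Figure D1:**
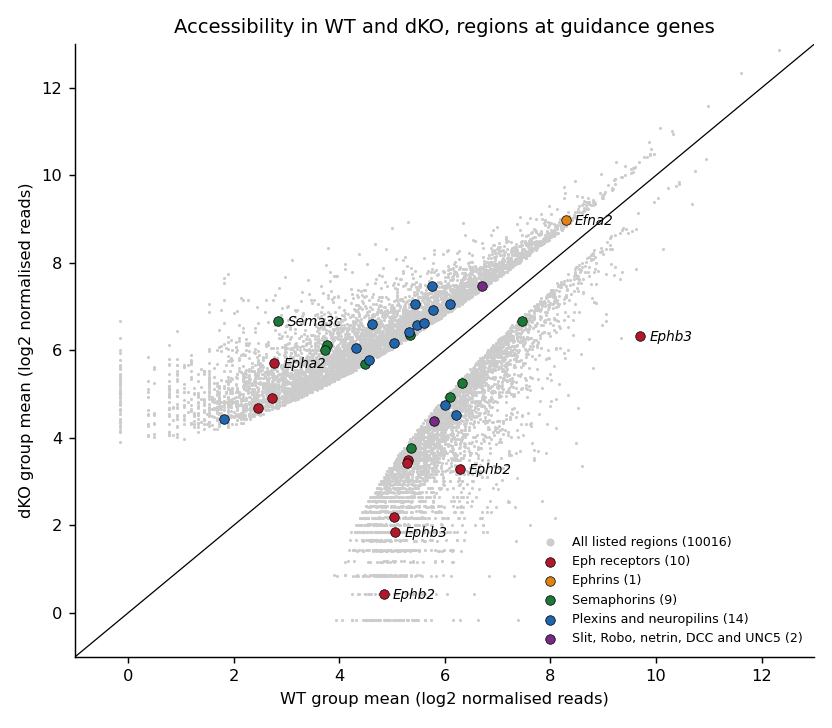
Level of each listed region in WT (horizontal axis) and dKO (vertical axis), both as log2 normalized reads averaged over 2 libraries. Grey points are all 10016 listed regions, colored points are the 36 regions at guidance genes by family, and the line marks equal levels. The Ephb3 promoter region (9.70 in WT, 6.33 in dKO) lies far below the line, and the Sema3c region (2.85 and 6.68) far above it.

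The share of genes with a listed region was set beside that of other genes, without matching for length. The 18 genes with a region are 46.2% of the 39, against 35.2% of 21755 protein-coding genes by the same window and 57.6% of protein-coding genes longer than 100 kb. The median gene body was 69.0 kb for the 39 genes and 17.4 kb for all protein-coding genes. Regions were higher in dKO throughout at 8 genes, lower throughout at 6, and in both directions at 4 (Epha2, Sema4b, Sema4d and Nrp1). However, 10 of the 18 genes had only 1 region and could not go both ways. There were 7 genes with at least 3 regions, and at 4 of them (Ephb2, Ephb3, Plxnc1 and Nrp2) all regions went the same way. Of 1051 protein-coding genes with at least 3 listed regions in their windows, 63.2% had them all in the same direction.

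The 21 genes without a listed region were the receptors Epha7, Ephb1, Ephb4 and Ephb6, the ephrins Efna1, Efna4, Efna5, Efnb1 and Efnb2, the semaphorins Sema4a, Sema4f, Sema6b, Sema6d and Sema7a, the plexins Plxnb1 and Plxnb2, and Robo1, Slit1, Ntn1, Ntn4 and Dcc. They include Dcc, the longest gene of the set with 1097 kb. At the edge of the windows, the last regions inside lay 22040 bp from Plxnc1 (change 2.63) and 23413 bp from Nrp2 (1.73), and the first regions outside lay 28009 bp (0.83) and 29121 bp (1.56) from Epha2.

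**Figure D2:**
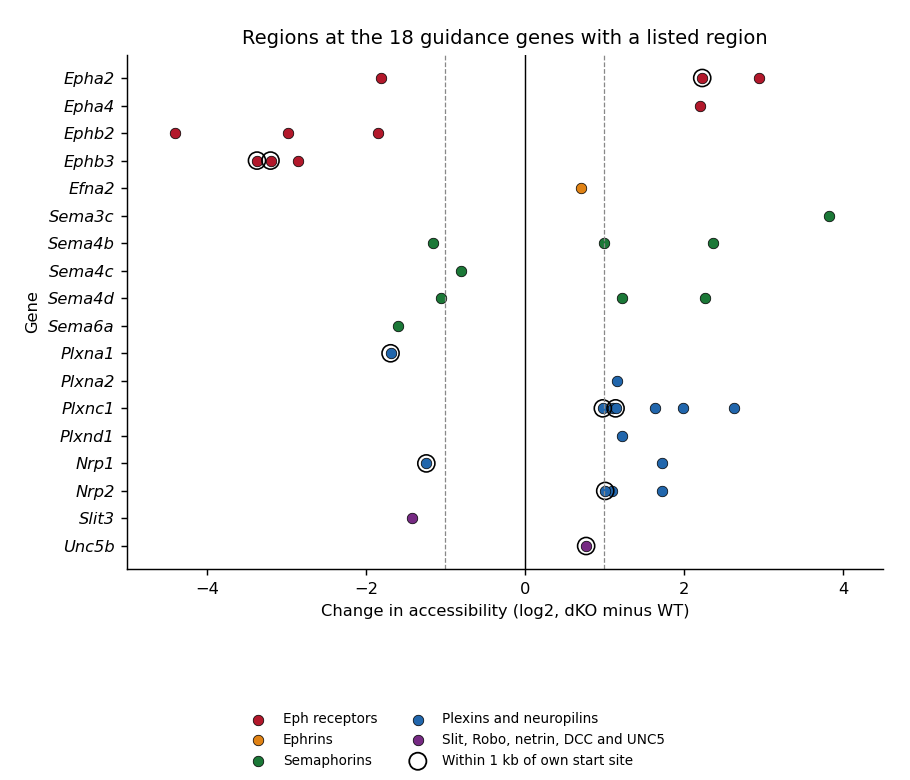
Change in accessibility (log2, dKO minus WT) of each of the 36 regions, by gene (rows) and family (color). Ringed points lie within 1 kb of a start site of their own gene, and dashed lines mark 2-fold differences. Ephb2 and Ephb3 have all points on the left, Plxnc1 and Nrp2 all points on the right.

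The Eph receptors held the largest losses of accessibility. Ephb2 and Ephb3, which encode B-class receptors that mainly bind the transmembrane ephrin-B ligands, had 3 regions each, and all 6 were lower in dKO by at least 1.85. Epha2 and Epha4, A-class receptors that mainly bind the lipid-anchored ephrin-A ligands, had 3 higher regions and 1 lower region. The lower regions of the family were thus at Ephb2, Ephb3 and the 3′ side of Epha2. Epha2 itself also had higher regions, and Epha4 had only 1 region.

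At Ephb3 (chr16:21204755-21223305, + strand), the region over the start site and first exon (chr16:21204263-21204947) had a level of 9.70 in WT and 6.33 in dKO. This corresponds to 832 and 80.4 normalized reads per library, or 10.3-fold lower accessibility in dKO. It was the most open of the 36 regions in WT also per length, with 121 normalized reads per 100 bases, followed by the Efna2 region with 54.1. A second region (chr16:21216040-21216362), in an intron 455 bp upstream of an internal start site, had 5.06 and 1.86. The third (chr16:21228144-21228481), 4839 bp beyond the 3′ end of the gene, had 5.04 and 2.19. All 3 were thus 7.21-fold to 10.3-fold lower. On chromosome 16, 73.5% of the other listed regions were higher in dKO, and within 1 Mb of Ephb3 there were 7 higher and 6 lower ones, so the Ephb3 regions went against the direction of most of their chromosome.

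At Ephb2 (chr4:136647539-136835988, - strand), all 3 regions were intronic. The region 35455 bp from the nearest Ephb2 start site (chr4:136800155-136800388) had 4.84 in WT and 0.44 in dKO. The dKO level is below the floor of 1.43, which is set at 3 reads per library, and against that floor accessibility was at least 10.6-fold lower. The region at 20072 bp (chr4:136815382-136815771) had 6.28 and 3.30, a 7.89-fold difference. The region at chr4:136696529-136696841, which lies 2489 bp upstream of an internal start site, had 5.28 and 3.43. No Ephb2 promoter region was listed. Other listed regions within 1 Mb of Ephb2 were lower in 14 cases and higher in 4, the same direction as the Ephb2 regions.

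The sequences with the largest bounded loss in each of these genes follow, on the + strand of mm10. For Ephb3 the 300 bases upstream of the annotated first exon are shown, which belong to the promoter region, and for Ephb2 the whole intronic region. Capitals mark a match to the C/EBP consensus described further on.
Ephb3, chr16:21204455-21204754: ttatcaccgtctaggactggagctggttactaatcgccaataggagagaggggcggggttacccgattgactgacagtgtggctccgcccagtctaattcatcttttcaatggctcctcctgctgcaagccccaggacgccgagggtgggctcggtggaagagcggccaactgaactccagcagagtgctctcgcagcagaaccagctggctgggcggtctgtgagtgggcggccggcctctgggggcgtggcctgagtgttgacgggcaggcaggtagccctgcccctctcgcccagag
Ephb2, chr4:136800155-136800388: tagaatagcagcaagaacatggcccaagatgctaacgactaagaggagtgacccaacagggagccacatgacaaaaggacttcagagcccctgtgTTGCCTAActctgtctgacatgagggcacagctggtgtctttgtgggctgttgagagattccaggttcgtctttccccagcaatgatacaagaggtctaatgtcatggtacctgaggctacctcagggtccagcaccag

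Epha2 (chr4:141301240-141329384, + strand) had regions in both directions. The region over its start site and first exon (chr4:141301107-141301385) had 2.46 in WT and 4.69 in dKO, and a region over a coding exon further downstream (chr4:141322512-141322894) had 2.77 and 5.72. Both were low in WT, at 5.50 and 6.82 normalized reads per library, and 4.69-fold and 7.73-fold higher in dKO. In contrast, a region 659 bp beyond the 3′ end (chr4:141330043-141330376) had 5.31 and 3.50. At Epha4, a region 1206 bp upstream of the gene (chr1:77516294-77516568), which the long noncoding RNA Gm28386 overlaps, had 2.72 and 4.92. The 300 central bases of the Epha2 exon region are shown because it is the largest gain in this family. They hold no match to the 5 motifs searched.
Epha2, chr4:141322553-141322852: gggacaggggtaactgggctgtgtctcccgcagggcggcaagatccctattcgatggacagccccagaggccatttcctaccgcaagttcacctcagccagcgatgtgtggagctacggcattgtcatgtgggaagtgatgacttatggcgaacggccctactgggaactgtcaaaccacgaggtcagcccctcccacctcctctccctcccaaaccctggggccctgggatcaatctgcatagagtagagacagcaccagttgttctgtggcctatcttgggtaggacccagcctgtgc

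**Figure D3:**
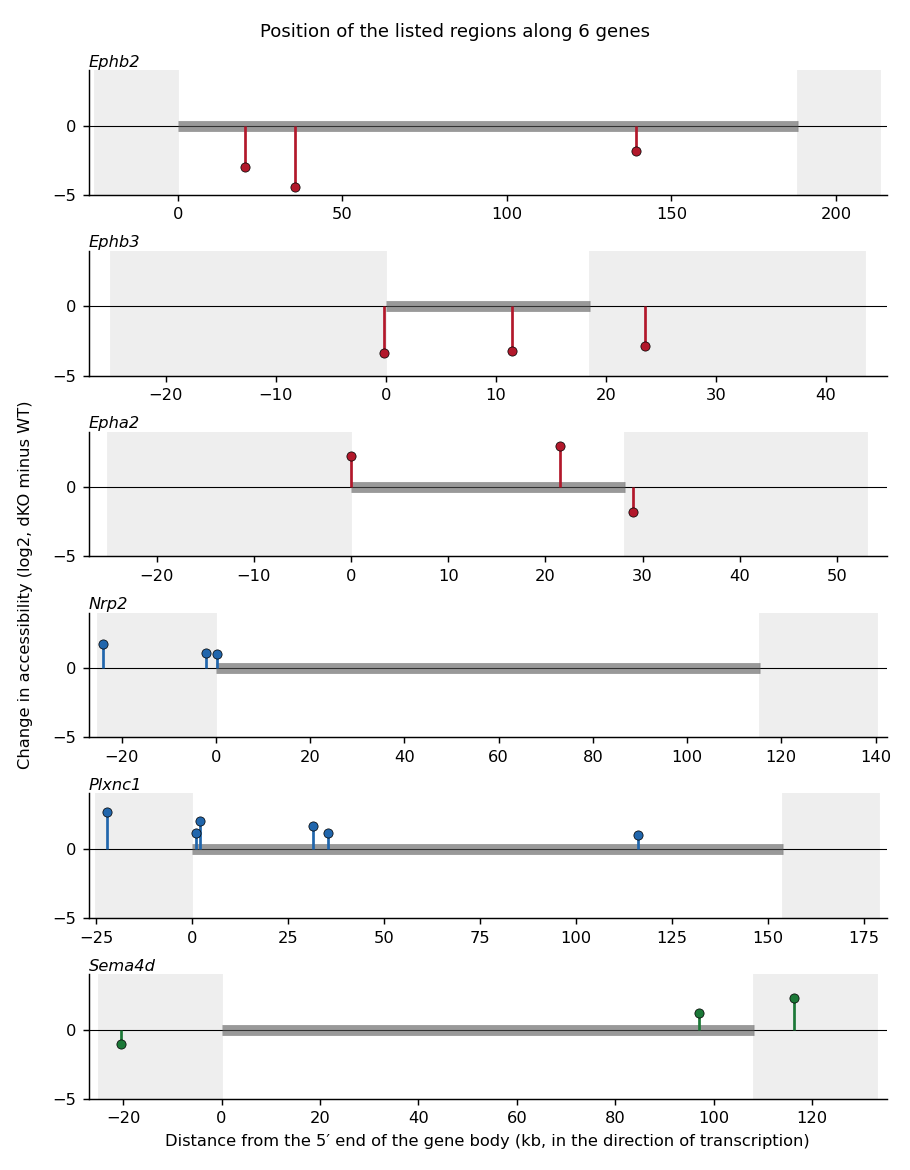
Position of the listed regions along 6 genes, as distance from the 5′ end of the gene body in kb, with stem height giving the change (log2, dKO minus WT). Grey bars are gene bodies and shaded bands the 25 kb on either side. Stems point down throughout Ephb2 and Ephb3, up throughout Nrp2 and Plxnc1, and both ways at Epha2 and Sema4d. The longest stem at Ephb2 shows the listed change of -4.40, and its bound against the floor is -3.40.

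Among the ephrins, the ligands of the Eph receptors, 1 of 6 genes had a region. It was assigned to Efna2 (chr10:80179482-80190010, + strand), lies 6115 bp upstream of it and had 8.29 in WT and 8.99 in dKO. The region (chr10:80172789-80173367) covers the start site of 1600002K03Rik, to which it is closer. With a change of 0.70 it was among the 3 higher regions under 2-fold, and it would count as lower if changes were centered on the median of 0.98.

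Plexins and neuropilins, the receptor side of semaphorin signaling, were mostly higher in dKO. Plxnc1, which encodes the receptor for Sema7a, had the most regions of any gene in the set, and all 6 were higher. Nrp2, a co-receptor for class 3 semaphorins and for vascular growth factors, had 3 regions, all higher. The lower regions lay at the promoters of Plxna1 and Nrp1. Centering the changes on the median of all listed regions left 5 of the 6 Plxnc1 regions and all 3 Nrp2 regions higher, and brought 1 Plxnc1 region to exactly 0.

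Plxnc1 (chr10:94790866-94944835, - strand) had its regions spread from upstream to the 3′ part of the gene. The region 22040 bp upstream (chr10:94966875-94967132) had the lowest WT level at guidance genes, 1.81, and 4.44 in dKO, a 6.19-fold difference. Near the 5′ end, a region over a coding exon 361 bp from the start site (chr10:94943489-94944474) had 5.04 and 6.18, and an intronic region 1705 bp from it (chr10:94942789-94943130) had 4.62 and 6.61. Further intronic regions had 5.43 and 7.06 (chr10:94913258-94913758) and 5.47 and 6.58 (chr10:94909374-94909712). The last, 552 bp from an internal start site (chr10:94828243-94828994), had 6.09 and 7.07, a change of 0.98 that is just under 2-fold.

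Of the other listed regions on chromosome 10, 81.8% were higher in dKO, the largest share among the 11 chromosomes that carry guidance gene regions. Within 1 Mb of Plxnc1, 17 of 21 other regions were higher. All 8 guidance gene regions on chromosome 10, at Efna2, Plxnc1 and Unc5b, were higher, and without them 14 of 28 regions were higher and 14 lower, against 58.4% higher among the listed regions off chromosome 10, and the median change was 0.10 in place of 1.00. The part of the chromosome in the Plxnc1 values was not tested.

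**Figure D4:**
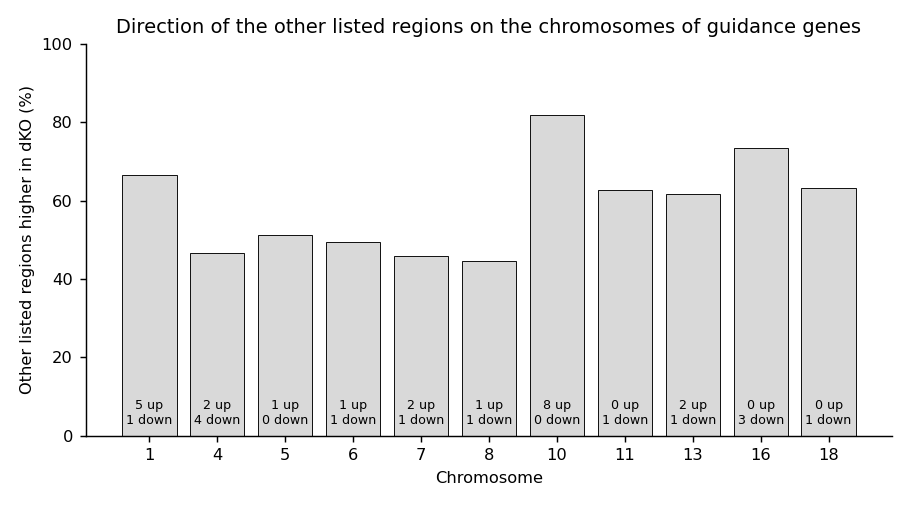
Share of the other listed regions that were higher in dKO (bars, percent) on each chromosome that carries a guidance gene region, with the numbers of guidance gene regions higher (up) and lower (down) in dKO inside the bars. Chromosome 10 has the highest bar (81.8%) and 8 guidance gene regions up, chromosome 16 the second highest (73.5%) and 3 down.

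Nrp2 (chr1:62703285-62818695, + strand) had a cluster at its 5′ end. The region over its start site and first exon (chr1:62702958-62703989) had 5.61 in WT and 6.62 in dKO, a region 1877 bp upstream (chr1:62701061-62701408) had 5.32 and 6.42, and a region 23413 bp upstream (chr1:62678685-62679872) had 5.75 and 7.48. The sizes were 2.01-fold to 3.32-fold. The other 5 listed regions within 1 Mb were 1 higher and 4 lower. Nrp1, the related co-receptor, differed in that its promoter region, 973 bp upstream of the start site (chr8:128357148-128357631), was lower, with 6.00 and 4.76. A region 2583 bp beyond its 3′ end (chr8:128505946-128506278) was higher, with 4.32 and 6.05. Whether the neuropilin promoters differ from each other was not tested.

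The A-class plexins, which transduce class 3 and class 6 semaphorin signals, also went both ways. The promoter region of Plxna1 (chr6:89362498-89362839), over the start site and untranslated first exon, had 6.22 in WT and 4.53 in dKO, a 3.23-fold lower level. An intronic region of Plxna2 (chr1:194671652-194672415) had 5.77 and 6.93. At Plxnd1, which encodes a receptor for Sema3e with a known role in blood vessels, a region 14551 bp upstream (chr6:116009556-116009820) had 4.56 and 5.78. The most GC-rich region at guidance genes was that of Plxna1, with 80.1%.

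The largest gain and the largest loss of this family outside untranslated exons are shown, the upstream Plxnc1 region whole and 300 bases of the Nrp1 promoter region. Capitals in the Plxnc1 sequence mark a PU.1 consensus on the - strand.
Plxnc1, chr10:94966875-94967132: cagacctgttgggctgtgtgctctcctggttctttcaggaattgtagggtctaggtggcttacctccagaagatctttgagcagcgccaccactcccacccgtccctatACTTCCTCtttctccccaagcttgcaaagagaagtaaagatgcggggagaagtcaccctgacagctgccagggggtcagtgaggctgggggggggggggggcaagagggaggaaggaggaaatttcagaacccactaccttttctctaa
Nrp1, chr8:128357239-128357538: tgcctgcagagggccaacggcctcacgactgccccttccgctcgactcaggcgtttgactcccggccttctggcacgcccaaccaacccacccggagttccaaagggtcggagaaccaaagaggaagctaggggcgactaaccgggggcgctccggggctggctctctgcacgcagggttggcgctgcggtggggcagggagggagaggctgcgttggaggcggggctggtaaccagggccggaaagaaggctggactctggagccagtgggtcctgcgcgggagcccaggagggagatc

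Among the semaphorins, the ligands, 5 genes had 9 regions. The largest gain at any guidance gene was at Sema3c, which encodes a secreted class 3 semaphorin. A region 17772 bp upstream of the gene (chr5:17556000-17556509) had 2.85 in WT and 6.68 in dKO, or 7.21 and 103 normalized reads per library, a 14.2-fold difference. The 6 other listed regions within 1 Mb were all higher.

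Class 4 semaphorins are membrane proteins, and Sema4d, also known as CD100, acts on lymphoid and myeloid cells through plexin B receptors and CD72. Sema4d (chr13:51685529-51793747, - strand) had an intronic region (chr13:51696509-51696847) with 4.48 in WT and 5.70 in dKO. A region 7942 bp beyond its 3′ end (chr13:51677098-51677587) had 3.74 and 6.00, but lies inside Secisbp2 and nearer to its start site. A region 20156 bp upstream (chr13:51813903-51814302) was lower, with 6.32 and 5.26. At Sema4b, a region 19727 bp upstream (chr7:80166739-80167114) had 3.77 and 6.13, an intronic region (chr7:80203033-80203329) had 5.35 and 6.35, and another intronic region (chr7:80191487-80191791) had 6.09 and 4.94. The Sema4c region (chr1:36539112-36539665), with 7.46 and 6.66, covers the start site of Gm42417 and overlaps Ankrd39, 8974 bp beyond the 3′ end of Sema4c.

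The sequences shown for the semaphorins are the central 300 bases of the Sema3c region and 300 bases of the lower Sema4b region. Capitals mark, in order, 2 C/EBP matches and 1 AP-1 match in the Sema3c sequence, the last outside the central 200 bases searched for the counts given further on. The Sema4b sequence has no match.
Sema3c, chr5:17556104-17556403: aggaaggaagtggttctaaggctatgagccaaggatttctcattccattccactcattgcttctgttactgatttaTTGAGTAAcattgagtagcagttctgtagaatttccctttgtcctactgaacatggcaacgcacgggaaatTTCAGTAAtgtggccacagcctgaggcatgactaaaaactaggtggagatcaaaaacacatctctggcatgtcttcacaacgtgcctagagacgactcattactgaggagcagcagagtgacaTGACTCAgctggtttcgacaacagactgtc
Sema4b, chr7:80191489-80191788: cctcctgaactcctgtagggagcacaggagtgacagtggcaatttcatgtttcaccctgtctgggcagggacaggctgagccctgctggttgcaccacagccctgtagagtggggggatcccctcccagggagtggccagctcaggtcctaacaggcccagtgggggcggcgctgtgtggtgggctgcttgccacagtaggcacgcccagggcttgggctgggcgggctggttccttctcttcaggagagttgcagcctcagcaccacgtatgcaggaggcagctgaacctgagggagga

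In the Slit, Robo, netrin, DCC and UNC5 group, 2 of 7 genes had a region. Unc5b (chr10:60762593-60831581, - strand), which encodes a repulsive netrin receptor, had a region over its start site and first exon (chr10:60831121-60831792) with 6.71 in WT and 7.48 in dKO. This change of 0.77 would count as lower after centering on the median of 0.98, and the region lies on chromosome 10. Slit3, a secreted Robo ligand, had a lower region 15324 bp beyond its 3′ end (chr11:35723831-35724319), with 5.80 and 4.38, whose nearest protein-coding start site is that of Pank3. Its central 300 bases are shown, since the Unc5b region overlaps an untranslated exon. Capitals mark a C/EBP match on the - strand, which does not lie wholly within the central 200 bases that were searched for the counts given further on.
Slit3, chr11:35723925-35724224: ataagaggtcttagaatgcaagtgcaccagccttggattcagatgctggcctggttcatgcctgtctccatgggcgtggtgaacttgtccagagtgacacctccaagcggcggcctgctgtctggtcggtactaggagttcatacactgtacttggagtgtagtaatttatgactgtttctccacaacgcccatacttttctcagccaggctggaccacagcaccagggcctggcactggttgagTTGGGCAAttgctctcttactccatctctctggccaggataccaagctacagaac

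The remaining semaphorin region was that of Sema6a, a transmembrane class 6 semaphorin. It lay over a coding exon on chromosome 18 (chr18:47297958-47298318) and had 5.36 in WT and 3.76 in dKO.

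The rule required a region to lie within 25 kb of a gene body, but used neither its place relative to the gene nor its sequence. Of the 36 regions, 12 were intronic, 8 touched an exon, 10 were upstream and 6 downstream of the gene. With 60.3% of all listed regions higher, and no share by placement computed for them, the upstream regions were 8 higher and 2 lower and the downstream regions 2 higher and 4 lower. There were 9 regions within 1 kb of a start site of their own gene, 5 higher (Epha2, Plxnc1 with 2, Nrp2 and Unc5b) and 4 lower (Ephb3 with 2, Plxna1 and Nrp1). For 4 regions, at Efna2, Sema4c, Sema4d and Slit3, another protein-coding gene had the nearest start site. Counting start sites of any gene, 30.6% of the 36 regions lay within 1 kb of one, against 19.1% of all listed regions. The median GC content was 54.8% in the higher and 56.1% in the lower regions at guidance genes, against 48.4% and 50.2% over all listed regions. The rule kept regions near genes, and its part in these values was not tested.

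Consensus motifs were then searched on both strands in the central 200 bases of each region. The C/EBP consensus was TTGCNNAA or TTACNNAA, where N is any base, on either strand. It occurred in 5 of 14 lower regions (35.7%) and in 2 of 22 higher regions (9.09%), against 40.7% of all listed lower regions and 20.2% of all listed higher regions. With whole regions searched, 7 lower and 5 higher regions had it, against 54.3% of all listed lower and 35.3% of all listed higher regions. With 1 region per gene and direction, the central 200 bases had it in 2 of 10 lower and 1 of 12 higher regions. The AP-1 consensus TGACTCA occurred in 5 of 22 higher regions (22.7%), against 26.6% of all listed higher regions. In lower regions it occurred in 0 of 14, against 4.65% of all listed lower regions. An approximate upper limit for this share, which takes the 14 regions as independent, is 21.4%. With 14 and 22 regions these shares are imprecise, and for these motifs the larger share was in the same direction as in the whole table.

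Further consensus motifs were searched in the same way. The RUNX consensus AACCACA occurred in 3 higher regions (13.6%) and 3 lower regions (21.4%). The PU.1 consensus GAGGAAGT occurred in 4 higher regions (18.2%) and 1 lower region (7.14%). For GATA, with the consensus AGATAAG, the counts were 1 and 0. Among all listed higher and lower regions the shares were 13.7% and 9.02% for RUNX, 12.99% and 3.37% for PU.1, and 2.68% and 2.21% for GATA. For RUNX the larger share was thus in lower regions at guidance genes and in higher regions over the whole list, a difference that rests on 3 regions each. A match describes the letters of the sequence and not the binding of a factor. It also does not tell C/EBPα, C/EBPβ and C/EBPε apart.

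**Figure D5:**
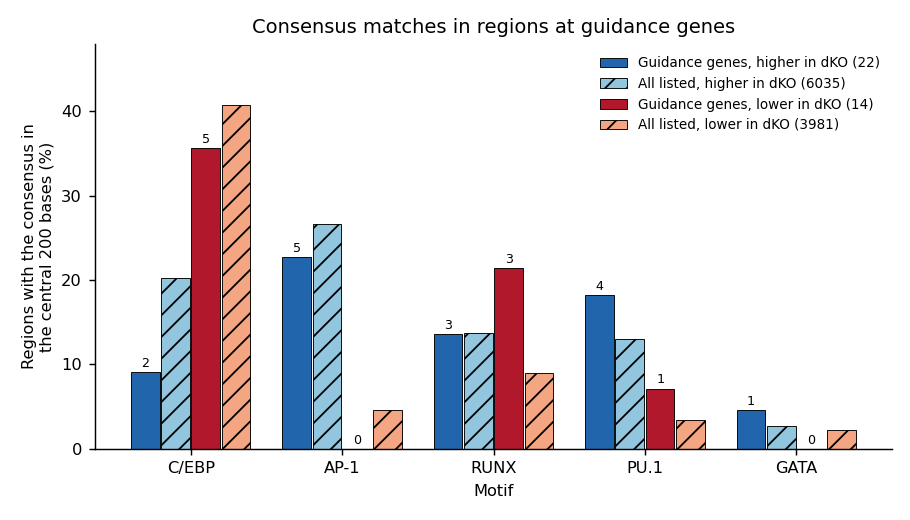
Share of regions with each consensus in their central 200 bases (percent), for guidance gene regions (solid bars, with the number of regions on top) and all listed regions (hatched), higher (blue) and lower (red) in dKO. C/EBP matches are in 5 lower and 2 higher guidance gene regions, AP-1 matches in 5 higher and 0 lower ones.

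The 5 lower regions with a C/EBP match in their central 200 bases were at Eph receptors, namely the 3 intronic Ephb2 regions and the regions beyond the 3′ ends of Ephb3 and Epha2. The Eph receptors had 7 of the 14 lower regions. With whole regions searched, the lower Sema4d region and the Slit3 region also had a match. The Ephb3 promoter region, with the highest WT level, had no match. The match of each of the 5 regions is shown in capitals with 16 bases on either side, on the + strand of mm10.
Epha2, chr4:141330189-141330228: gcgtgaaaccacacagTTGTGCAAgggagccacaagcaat
Ephb2, chr4:136696632-136696671: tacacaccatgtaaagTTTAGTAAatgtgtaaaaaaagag
Ephb2, chr4:136800234-136800273: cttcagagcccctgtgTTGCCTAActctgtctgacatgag
Ephb2, chr4:136815645-136815684: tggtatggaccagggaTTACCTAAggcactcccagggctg
Ephb3, chr16:21228360-21228399: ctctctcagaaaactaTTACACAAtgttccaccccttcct

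The higher regions with an AP-1 match were at Sema4b, Plxna2, Plxnc1, Plxnd1 and Nrp1. Plexins and neuropilins thus had 4 of these 5 regions, and 12 of all 22 higher regions. With whole regions searched, 9 higher regions had a match (40.9%, against 36.1% of all listed higher regions), 5 of them at plexins or neuropilins. The Sema4b and Plxna2 regions held 2 matches each. They are shown in the same way.
Sema4b, chr7:80166832-80166870: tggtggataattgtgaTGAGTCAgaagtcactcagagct
Sema4b, chr7:80166893-80166931: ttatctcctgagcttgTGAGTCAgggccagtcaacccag
Plxna2, chr1:194671983-194672021: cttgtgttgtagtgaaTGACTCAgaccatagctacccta
Plxna2, chr1:194672032-194672070: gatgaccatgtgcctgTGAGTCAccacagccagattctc
Plxnc1, chr10:94909461-94909499: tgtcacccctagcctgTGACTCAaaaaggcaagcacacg
Plxnd1, chr6:116009687-116009725: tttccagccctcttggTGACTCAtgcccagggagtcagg
Nrp1, chr8:128506085-128506123: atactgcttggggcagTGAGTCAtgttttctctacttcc

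Further genes of these pathways were counted by the same window. Of 40 other guidance ligands and receptors, 16 had 22 regions, 18 higher and 4 lower, with a median change of 1.38. Over all listed regions 60.3% were higher and the median change was 0.98, and 35.2% of protein-coding genes had a region. The largest changes were at Unc5c (3.98 in WT and 7.24 in dKO) and Unc5a (2.89 and 5.61 in the largest of its 4 higher regions), which encode further netrin receptors, at Flrt2 (1.89 and 4.60), an UNC5 ligand, and, as losses, at the netrin family genes Ntn5 (6.43 and 3.24) and Ntng1 (5.89 and 2.85). Ntn5 also had a higher region (2.35 and 5.00). The 4 Unc5a regions, at levels of 2.89 to 5.54 in WT and 5.61 to 7.70 in dKO, were all higher, as was that of Unc5b.

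Of 13 co-receptors and alternative receptors, 9 had 16 regions, 13 higher and 3 lower, beside 60.3% higher over all listed regions. The lower regions covered start sites of Timd2, a receptor for Sema4a (5.74 and 2.44), of Trem2 (6.00 and 4.44) and of Itga1 (5.80 and 4.38). Trem2 and Tyrobp encode partners of Plxna1 in myeloid cells, and Tyrobp had 7 higher regions, the largest change being that over its start site (4.73 and 6.65). Nrcam (2.46 and 4.55) and Flt1 (3.65 and 5.19) were higher.

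Of 38 intracellular effectors, 25 had 56 regions, 35 higher and 21 lower, with a median change of 1.08, close to the 60.3% higher and the median of 0.98 over all listed regions. Mical2, an actin-oxidizing enzyme related to the plexin effector Mical1, had a start site region with 8.48 in WT and 3.89 in dKO. Fyn, a kinase that acts below ephrins and plexins, had 3 lower regions on chromosome 10, where most others were higher, and 1 of them was below the floor in dKO (4.66 and 0.86). Farp2, a guanine nucleotide exchange factor of the class 3 semaphorin pathway, had 4.68 and 1.66. Ngef, which encodes the Eph receptor partner ephexin, had 1.20 and 4.89, with the WT level below the floor. All 3 regions of Vav3, an exchange factor that acts below Eph receptors, were higher, the largest change being from 1.33 to 4.43, again with WT below the floor.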

How the data were processed

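ATAC-seq libraries came from WT, dKO and dKO-LAP* cells, with 2 libraries in each group per the labels. Reads went through the PiGx pipeline of the authors (Bowtie 2 against mm10, MACS peaks), and DiffBind (2.14.0 in the submitters' processing notes) compared groups at a corrected P-value cutoff of 0.05. How duplicates, the Tn5 offset, peak merging and scaling were handled is not given in the sources used here. The authors deposited 2 files of identical content, thus 1 table, with log2 mean normalized reads over both groups, over WT and over dKO. It also holds the authors' fold change, P-value and FDR per region, which were not used. The table has no value per library and none for dKO-LAP*, so no test, SD or replicate check was made. The study gives an average sequencing depth over its ATAC-seq samples, but no depth per library.

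Changes were computed as the dKO mean minus the WT mean. The lowest level, -0.15 in both groups, was taken as 1 read in each library, and 3 times this (1.43) as the floor, which covers counting error only. Genes and start sites came from GENCODE M21, and sequences from RefSeq GRCm38.p6, which shares its chromosome sequences with mm10 (pysam 0.24.0, samtools 1.23.1, pandas 2.3.3). Coordinates are those of the table, with both ends included. Distances to a start site run from the nearer edge of a region to the nearest annotated transcript start. The members, lists and motifs were chosen with earlier results of these data known. Named were, in each family, the 3 largest rises and falls, regions within 1 kb of their own start site and genes with regions in both directions, and up to 5 genes of each other list. Itga1, the remaining regions, the Ephb3 promoter sequence and the windows about motif matches were added after their values had been seen. Assignment and motif search were tested on simulated regions. Alternatives to window, assignment, scaling, pseudocount and level are given in the closing section.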

Additional observations from a re-analysis of the deposited data

How the results depend on the processing

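The 22 higher and 14 lower regions were recounted under 8 alternatives, and under another chosen after seeing the data. With the gene body alone as window, 12 higher and 8 lower regions at 11 genes were left, 10 of them at least 2-fold higher and 8 at least 2-fold lower. Leaving out regions below the lower quartile of mean level gave 9 lower regions, 8 of them at least 2-fold. Centering on the median of all listed regions, which describes listed regions and no normalization, left 8 regions at least 2-fold higher, brought the median change to 0.025 and turned the direction of Efna2 and of Unc5b from 1 to -1 (higher minus lower regions). Without chromosome 10, the alternative chosen after seeing the data, 14 regions were higher and the median change was 0.10. Other counts and medians stayed within 1.5 times the reported value. The shares of higher regions and of C/EBP and AP-1 matches lay within the binomial interval of the reported share. With so few regions, counted as independent, these intervals are wide, so they could hardly show a dependence on the processing. Among these shares, C/EBP matches in whole regions were in 5 of 22 higher (22.7%) and 7 of 14 lower regions. With 1 region per gene and direction they were in 1 of 12 and 2 of 10. Over 77 combinations of gene and alternative, the number of higher minus lower regions had the same value in 59 and another value of the same sign or 0 in 16, and its sign turned in those 2. In 13 further combinations the gene had no region left.

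No paired analysis was possible because each group is represented by its mean alone, so no library was omitted in turn either. Without depths or values per library, differences in level carry no error.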
